A study of Mus musculus with 12 samples.

Results

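The mitochondrial ribosomal protein genes were followed across RNA-seq libraries of cDC1 from mouse inguinal lymph nodes. These type 1 conventional dendritic cells are specialised in showing antigen from dead cells to CD8 T cells. Members were all protein-coding genes of the GENCODE M21 annotation whose symbol is Mrpl or Mrps followed by a digit, which gave 78 of the 53458 genes in the summed table, 49 named Mrpl and 29 named Mrps. The 12 libraries fall into 4 groups of 3. Tumor-CD40 mice carried a subcutaneous KPC tumor and were given a CD40 agonist, NoTumor-CD40 mice were given the agonist without a tumor, Tumor-NoCD40 mice carried the tumor without the agonist, and NoTumor-NoCD40 mice had neither. KPC commonly stands for a mouse pancreatic cancer model and its cell lines, and CD40 is a receptor on dendritic cells that signals from helper T cells engage. The labels used here give no strain, age, dose, time or sort gate, nor whether each library is a different animal, so a p-value here speaks of the spread among libraries, which may be technical.

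Mitochondria keep a small genome of their own and translate its mRNAs, which encode core subunits of the respiratory chain, on a ribosome separate from that of the cytosol. The RNA of this mitoribosome is made inside the organelle, whereas all its proteins are encoded in the nucleus, made in the cytosol and imported. Some of the proteins descend from those of bacterial ribosomes and others occur only in mitochondria. Activated dendritic cells are known to shift their energy supply from respiration towards glycolysis. By subunit, 51 members encode proteins of the large subunit and 26 of the small subunit. The symbol does not always name the subunit, since Mrps30 and Mrps18a encode proteins that sit in the large subunit. Mrps36 is known today as a part of the 2-oxoglutarate dehydrogenase complex and was counted with neither. In the current nomenclature of ribosomal proteins, 30 of the large subunit members carry the name of a bacterial protein and 21 a name used only in mitochondria, and of the small subunit members 16 and 10. This naming does not settle descent, since Mrps18a and Mrps18b have mitochondrial names but resemble Mrps18c, which is named after bacterial S18.

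Library totals of expected counts lay between 22855143 and 27163393. The cDC1 label was checked against 10 markers (Xcr1, Clec9a, Irf8, Batf3 and others), all of which were found. Their summed level, in CPM (library-scaled counts with TMM factors, which even out differences in composition), ran over 3699 to 4974 in Tumor-CD40, 2986 to 6583 in NoTumor-CD40, 2212 to 8760 in Tumor-NoCD40 and 5601 to 7681 in NoTumor-NoCD40. Xcr1, the chemokine receptor that defines these cells, was at 49.5 CPM in NoTumor-CD40 replicate 3 and at 73.1 CPM in Tumor-NoCD40 replicate 3, and between 198 and 780 CPM in the other 10 libraries. In these libraries, in that order, Clec9a was at 52.1 and 33.2 CPM, against 105 to 357 CPM in the others. Irf8 was at 1506 and 783 CPM, against 1294 to 2640 CPM. Batf3 was at 161 and 87.7 CPM, against 85.2 to 159 CPM, so not every marker was low. The same libraries were also the highest for the 18 genes of the mature dendritic cell program, summing to 37060 and 28103 CPM. The 12 B cell markers summed to 1355 to 3450 CPM in Tumor-CD40, against 269 to 629 CPM in the other groups. For the comparison of the agonist without tumor, in which NoTumor-CD40 replicate 3 takes part, counts and medians are given below with and without that library.

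Mrpl41, Mrpl12, Mrpl33 and Mrpl28 had the lowest p values of the members in the first comparison below, and the genomic DNA just before a RefSeq start site of each is shown. For Mrpl33 this start lies inside the annotated gene (chromosome 5, 31596935 to 31664384), all of whose transcripts were summed for the test. These sequences come from RefSeq (GRCm38.p6) and are printed 5′ to 3′ in the direction of the gene, trimmed to bases outside every annotated exon. Capitals mark matches to 5 motifs searched on both strands, which were that of nuclear respiratory factor 1 (NRF1, a GCGC before and another after an A and any base), CCGGAAG (ETS factors such as GABP), AAGATGGC (YY1), CCAAT and TATAAA. The stretches lie at chr2:24975099-24975348 on the minus strand for Mrpl41, chr11:120484387-120484612 on the plus strand for Mrpl12, chr5:31613701-31613938 on the plus strand for Mrpl33 and chr17:26123255-26123499 on the plus strand for Mrpl28.
Mrpl41: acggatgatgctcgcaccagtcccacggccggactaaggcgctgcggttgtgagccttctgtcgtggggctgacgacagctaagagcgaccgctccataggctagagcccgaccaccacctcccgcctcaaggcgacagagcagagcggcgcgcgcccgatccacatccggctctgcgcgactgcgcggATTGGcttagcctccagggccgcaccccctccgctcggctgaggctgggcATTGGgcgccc
Mrpl12: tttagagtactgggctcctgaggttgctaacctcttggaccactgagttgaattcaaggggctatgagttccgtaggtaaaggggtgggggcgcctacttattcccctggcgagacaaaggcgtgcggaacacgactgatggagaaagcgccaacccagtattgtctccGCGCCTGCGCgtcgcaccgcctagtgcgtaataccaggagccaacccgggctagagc
Mrpl33: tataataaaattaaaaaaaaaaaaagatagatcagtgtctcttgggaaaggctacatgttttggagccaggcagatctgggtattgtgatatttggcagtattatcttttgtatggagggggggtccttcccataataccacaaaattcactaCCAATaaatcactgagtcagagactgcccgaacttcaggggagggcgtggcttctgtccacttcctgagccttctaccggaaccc
Mrpl28: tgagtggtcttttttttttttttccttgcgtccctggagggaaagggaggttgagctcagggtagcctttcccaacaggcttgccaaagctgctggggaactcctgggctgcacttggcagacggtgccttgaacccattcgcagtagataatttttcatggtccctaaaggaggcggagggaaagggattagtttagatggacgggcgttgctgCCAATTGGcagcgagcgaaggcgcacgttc
The NRF1 letters stood 81 to 72 bases before the start of Mrpl12. Mrpl41 and Mrpl28 each held 2 matches to CCAAT and Mrpl33 held 1, and in Mrpl28 both matches share bases because they lie on opposite strands.

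RefSeq windows of 300 bases (250 before the start and 50 after it) were matched for 69 of the 78 members, with Mrps35, Mrpl15, Mrpl4, Mrpl19, Mrpl13, Mrpl38, Mrps28, Mrps34 and Mrpl54 unmatched. The NRF1 letters were in 13 of the 69 members (18.8%) and in 5.19% of the 27025 genes with a window. CCGGAAG was in 26 members (37.7%) and in 9.93% of genes, and AAGATGGC in 12 members (17.4%) and in 3.19% of genes. At least 1 of these 3 motifs was in 43 members (62.3%) and in 16.4% of genes. CCAAT was in 27 members (39.1%) and in 41.1% of genes, and TATAAA in 5 members (7.25%) and in 15.7% of genes. The median GC content of the windows was 58% in members and 52.8% in all genes. A match says only that these letters are present in the window.

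Between genes, levels are compared in TPM, which is scaled by transcript length. The 78 members had a median of 25.6 TPM (mean over the 12 libraries), from 0.265 TPM for Mrpl23 to 271 TPM for Mrps21. After Mrps21, a small subunit protein with a bacterial name, the highest were Mrpl18 at 201 TPM, Mrps18c at 161 TPM, Mrpl2 at 139 TPM and Mrpl52 at 129 TPM. The lowest above Mrpl23 were Mrpl1 at 5.0 TPM, Mrps31 at 5.01 TPM, Mrps30 at 5.21 TPM and Mrpl11 at 5.91 TPM. Neighbours in this order often overlap, since the libraries of Mrpl18 ran from 122 to 265 TPM and those of Mrps18c from 86.7 to 290 TPM. The 91 cytosolic ribosomal protein genes had a median of 1221 TPM. The large subunit members (median 25.1 TPM) and the small subunit members (median 25.6 TPM) had similar medians.

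The order depends on which transcripts are summed. Transcripts annotated as protein_coding held a median of 84.8% of a member's TPM and between 3.41% and 100%, the rest lying in transcripts of other biotypes of the same gene. With protein_coding transcripts alone, Mrpl18 had 19.7 TPM and rank 25, Mrpl2 had 11.6 TPM and rank 42, and Mrps18c had 32.7 TPM and rank 12, while Mrps21 stayed at rank 1. Mrpl23, which encodes a protein at the exit of the ribosome's tunnel, averaged 18.9 counts per library, whereas its pseudogene Mrpl23-ps1, identical to it over 85.9% of its transcript, averaged 509 counts. Reads could be divided between them, so its level is uncertain. In all, 12 members had 14 copies of at least 95% identity. Those averaging over 10 counts were, beside Mrpl23-ps1, Gm42688 (132 counts, against 346 for Mrpl53), Mrps36-ps2 (75.3, against 402 for Mrps36) and Gm13552 (29.6, against 482 for Mrps18b).

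**Figure D1:**
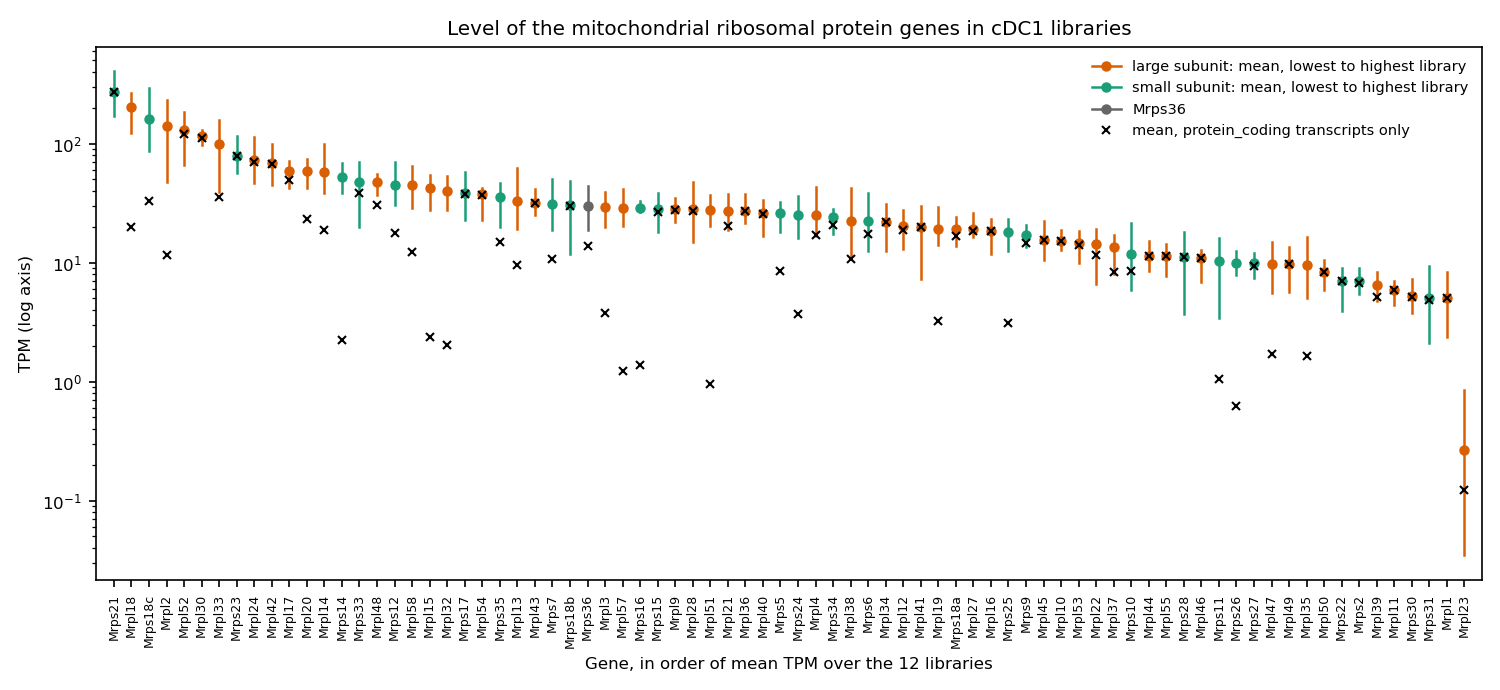
Mean TPM over the 12 libraries (points, log axis) with the range of the libraries (lines) for each of the 78 genes, by subunit, in order of level; crosses give the mean of protein_coding transcripts alone. Mrps21 leads at 271 TPM with either sum, while Mrpl18 at 201 TPM falls to 19.7 TPM with protein_coding transcripts alone.

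Summed over the 78 members, the level was 2909, 2822 and 2707 TPM in Tumor-CD40, 2762, 2823 and 2790 TPM in NoTumor-CD40, 2626, 3119 and 3022 TPM in Tumor-NoCD40, and 3027, 3437 and 3146 TPM in NoTumor-NoCD40. This is between 0.263% and 0.344% of all TPM. The 3 NoTumor-CD40 libraries lay below the 3 NoTumor-NoCD40 libraries, with means of 2792 ± 30.6 and 3203 ± 211 TPM (SD, n = 3 each) and a ratio of 0.872. Tumor-CD40 and Tumor-NoCD40 overlapped, with means of 2812 ± 101 and 2923 ± 261 TPM and a ratio of 0.962. In normalized CPM the sums overlapped without tumor too, at 1995 to 2384 CPM in NoTumor-CD40 and 2227 to 2767 CPM in NoTumor-NoCD40. TPM is a share of all transcripts. A lower level in bulk samples may mean fewer cells of a type, less RNA of these genes per cell, or more RNA of other genes. These cannot be told apart. The large subunit members summed to 1697 ± 133 TPM in NoTumor-CD40 and 2082 ± 101 TPM in NoTumor-NoCD40, and the small subunit members to 1061 ± 98.2 TPM in NoTumor-CD40 and 1094 ± 110 TPM in NoTumor-NoCD40. A few genes weigh heavily in these sums. Mrpl2 had 87 ± 34.9 TPM in NoTumor-CD40 and 215 ± 24.1 TPM in NoTumor-NoCD40, Mrpl18 had 184 ± 53.7 TPM in NoTumor-CD40 and 261 ± 6.59 TPM in NoTumor-NoCD40, and Mrps18c of the small subunit had 222 ± 76.7 TPM in NoTumor-CD40 and 130 ± 23.2 TPM in NoTumor-NoCD40. Most of the TPM of these genes lies outside protein_coding transcripts. Between the same groups the median log2 fold change of counts was -0.20 over the large subunit members and -0.27 over the small subunit members.

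**Figure D2:**
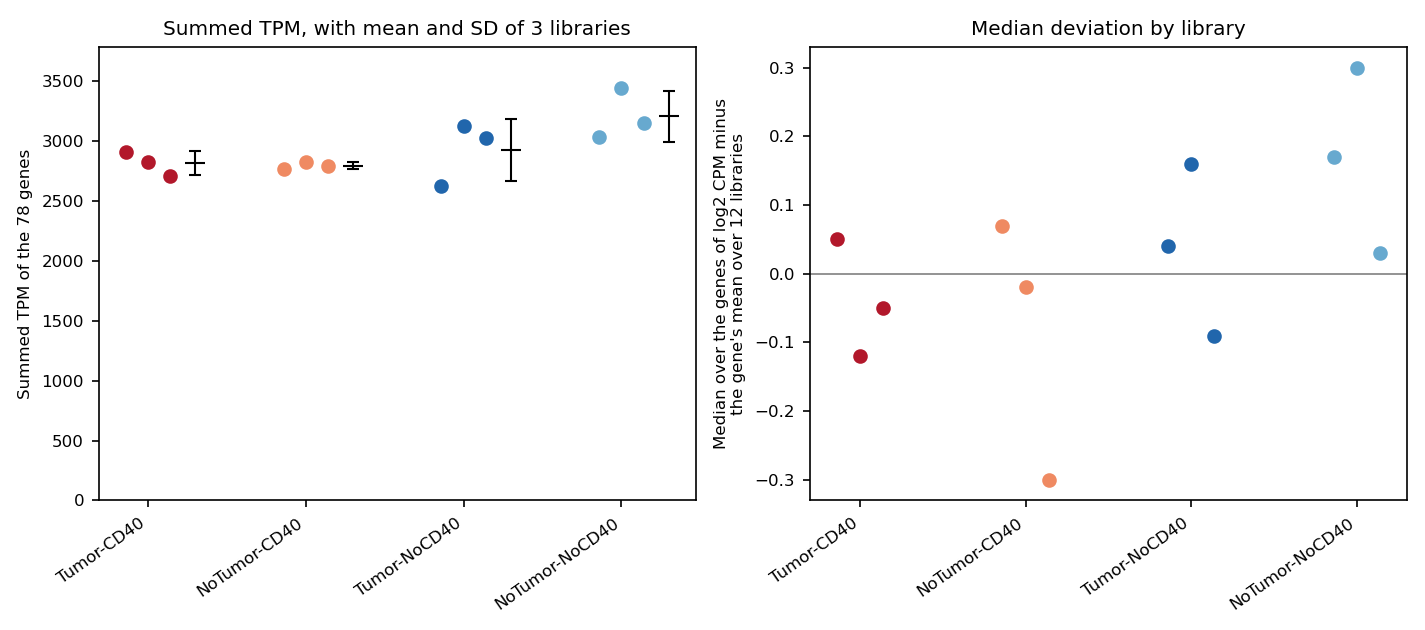
Left, summed TPM of the 78 genes in each library with the mean and SD of each group; right, the median over the genes of log2 CPM minus the gene's own mean, in each library. NoTumor-CD40 libraries sum to 2762 to 2823 TPM and NoTumor-NoCD40 libraries to 3027 to 3437 TPM, and on the right NoTumor-CD40 replicate 3 (-0.30) and NoTumor-NoCD40 replicate 2 (0.30) stand at the ends.

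The libraries at the ends of the members' range were NoTumor-CD40 replicate 3 and NoTumor-NoCD40 replicate 2. NoTumor-CD40 replicate 3 was the lowest of the 12 for 35 members, with a median deviation of -0.30 (log2) from the members' means, against -0.06 for all genes. NoTumor-NoCD40 replicate 2 was the highest for 30 members, with a median deviation of 0.30 and 69 of the 78 members above their mean. NoTumor-CD40 replicate 3 is also the library with the least Xcr1 and the most Ccr7 (3251 CPM), the chemokine receptor of migrating dendritic cells. Of the other cDC1 markers named above, Clec9a was low there (52.1 CPM) and Irf8 (1506 CPM) lay within the range of the other libraries. Batf3 was the highest of the 12 there (161 CPM). NoTumor-NoCD40 replicate 2 had 780 CPM of Xcr1 and 582 CPM of Ccr7. The part of cell make-up or maturity in the members' differences was not tested.

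**Figure D3:**
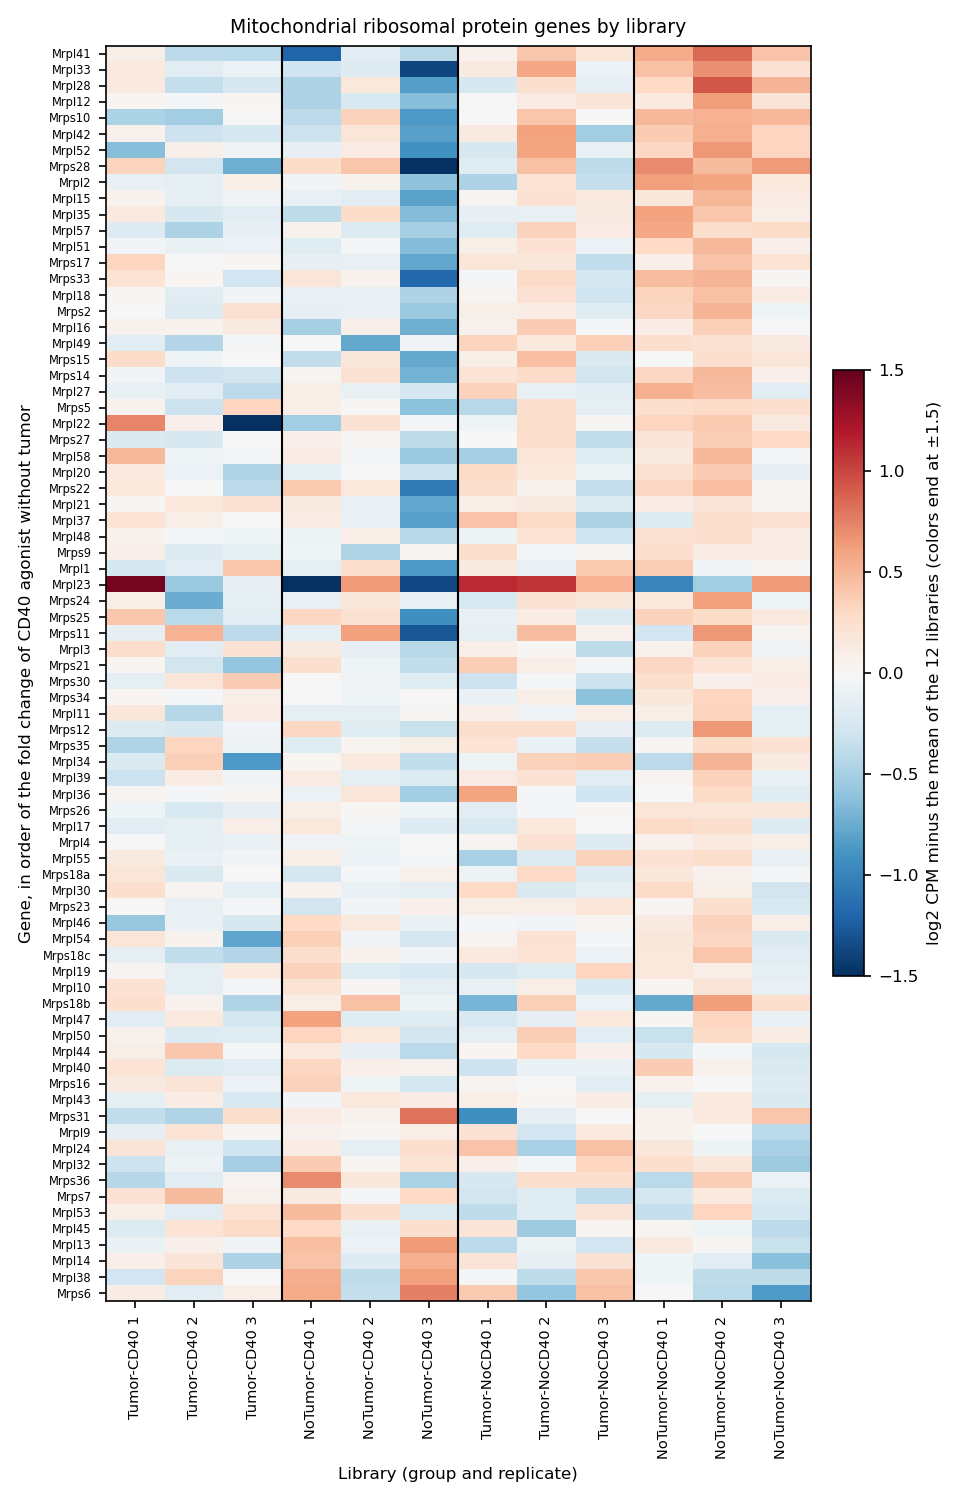
Each row is 1 of the 78 genes and each column 1 library; color is log2 CPM minus the gene's mean over the 12 libraries. Blue fills much of NoTumor-CD40 replicate 3, which is lowest of 12 for 35 genes, and red much of NoTumor-NoCD40 replicate 2, which is highest for 30 genes.

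The first comparison asks what the CD40 agonist did in mice without a tumor. Mrpl41 and Mrpl12 fell in NoTumor-CD40 libraries and no member rose, by the edgeR quasi-likelihood test, with p adjusted by Benjamini-Hochberg over 18095 genes. Those 2 are 2.56% of the members, while 1.44% of all genes passed, 1.36% as higher and 0.0829% as lower. DESeq2, run without edgeR's filter on low counts, called 4 members as lower (5.13%, against 0.512% of all 31027 genes with a count). Those genes include ones that edgeR's filter removed, whereas all 78 members passed it. The DESeq2 and edgeR shares of all genes therefore rest on different gene sets. By edgeR, Mrpl41 and Mrpl12 sat just inside the threshold of 0.05. Both calls are lost with edgeR's other dispersion setting (adjusted p = 0.0574 for Mrpl41 and 0.0504 for Mrpl12). Leaving out 1 of the 6 libraries ended both calls in 5 of 6 cases, the exception being NoTumor-CD40 replicate 2.

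Mrpl41, a large subunit protein with a mitochondrial name (chromosome 2, 24974117 to 24975098, minus strand), had 7.94, 16.3 and 13.7 CPM in NoTumor-CD40, against 26.7, 32.7 and 24.5 CPM in NoTumor-NoCD40. The groups did not overlap, and the log2 fold change was -1.14 ± 0.26 (SE), with an adjusted p of 0.0455 by edgeR. Mrpl12, a protein of the flexible stalk that recruits translation factors and is also known in human cells to bind the mitochondrial RNA polymerase (chromosome 11, 120484613 to 120489065, plus strand), had 30.6, 35.8 and 26.9 CPM in NoTumor-CD40, against 46.5, 65.1 and 48.1 CPM in NoTumor-NoCD40. Here too the groups were apart, with a log2 fold change of -0.78 ± 0.18 and an adjusted p of 0.0488 by edgeR. The next members by p did not pass. Mrpl33 had 23, 24.7 and 10.9 CPM in NoTumor-CD40, against 38.4, 45.4 and 32.9 CPM in NoTumor-NoCD40 (log2 fold change -1.0 ± 0.28, adjusted p = 0.0922 by edgeR). Mrpl28 had 18.5, 28.3 and 14.4 CPM in NoTumor-CD40, against 31.2, 48.6 and 36.1 CPM in NoTumor-NoCD40 (log2 fold change -0.92 ± 0.27, adjusted p = 0.105 by edgeR). These genes encode large subunit proteins with bacterial names, and both had their groups apart. In TPM, 35.8% of Mrpl33 lay in protein_coding transcripts. Replicates 1 share a title prefix across the groups, as do replicates 2, and within each such pair Mrpl41, Mrpl12, Mrpl33 and Mrpl28 were lower in NoTumor-CD40. NoTumor-NoCD40 replicate 3 shares its prefix with no library. With the prefix as a block in the model, neither call held (Mrpl41 at -1.22 with an adjusted p of 0.105 and Mrpl12 at -0.82 with an adjusted p of 0.103, by edgeR).

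Below these, values leaned low. The members' median log2 fold change was -0.23, against -0.04 for all genes, and 59 of 78 were below 0, against 52.3% of all genes. All 3 NoTumor-CD40 libraries were below all 3 NoTumor-NoCD40 libraries for 24 members (30.8%), against 12% of genes, and above them for 0 members, against 11.2% of genes. At an unadjusted p under 0.05, 16 members were lower (20.5%, against 8.48% of genes) and 3 were higher (Mrps6, Mrpl14 and Mrpl38, or 3.85%, against 9.89%). Each of the 6 libraries was left out in turn. Without NoTumor-CD40 replicate 3 the 16 became 5 (6.41%, against 3.26% of genes), the 3 became 0, the 59 became 51 and the median was -0.12. Without NoTumor-NoCD40 replicate 2 the 16 also became 5 (6.41%, against 4.83%), the 3 became 1, the 59 became 51 and the median was -0.13. Without one of the other 4 libraries, 11 to 20 members were lower and 0 to 4 higher at that p, and 58 to 63 were below 0. With 5 libraries, groups separate more often: 25 members were lower without overlap when NoTumor-CD40 replicate 3 was left out (32.1%, against 14.9% of genes), and 24 to 36 over the 6 omissions, against 14.9% to 22.6% of genes. Those apart as higher numbered 0 to 6, against 13.5% to 20.2% of genes. On the log2(TPM + 1) scale with limma the median was -0.13. Within the title prefix pairs the median difference was -0.12 for replicates 1 (48 of 78 members below 0) and -0.26 for replicates 2 (72 of 78). The medians by class were -0.22 for large subunit members with a bacterial name (24 of 30 below 0), -0.17 for those with a mitochondrial name (14 of 21), -0.29 for small subunit members with a bacterial name (13 of 16) and -0.20 for those with a mitochondrial one (8 of 10). Without NoTumor-CD40 replicate 3 they were -0.11, -0.11, -0.19 and -0.15.

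The panel of members with known special roles did not pass in this comparison beyond Mrpl12 and Mrpl41. Mrpl10, which anchors the Mrpl12 stalk, had a mean of 42.4 ± 5.13 CPM in NoTumor-CD40 and 42.7 ± 4.59 CPM in NoTumor-NoCD40 (SD, n = 3 each). Mrpl45, which tethers the ribosome to the inner membrane, had 47.8 ± 7 CPM in NoTumor-CD40 and 39.4 ± 5.97 CPM in NoTumor-NoCD40. Mrpl58, a release factor built into the large subunit, had 22.5 ± 5.16 CPM in NoTumor-CD40 and 28.5 ± 5.31 CPM in NoTumor-NoCD40. Mrps12, at the decoding centre, had 18.3 ± 4.48 CPM in NoTumor-CD40 and 21 ± 7.44 CPM in NoTumor-NoCD40. Mrps18a, Mrps18b and Mrps18c had log2 fold changes of -0.13, 0.02 and -0.06. Those of Mrpl44, Mrps27, Mrps30 and Mrps36 were 0.05, -0.37, -0.22 and 0.22. Of the 24 members that lay apart, 20 had a promoter window, and CCAAT was in 11 of these (55%) and in 16 of the other 49 members (32.7%), while the NRF1 letters were in 4 (20%) and 9 (18.4%). CCGGAAG was in 8 (40%) and 18 (36.7%), AAGATGGC in 3 (15%) and 9 (18.4%), and TATAAA in 2 (10%) and 3 (6.12%). That split uses the same contrast, all 3 NoTumor-CD40 libraries included, and is a description.

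**Figure D4:**
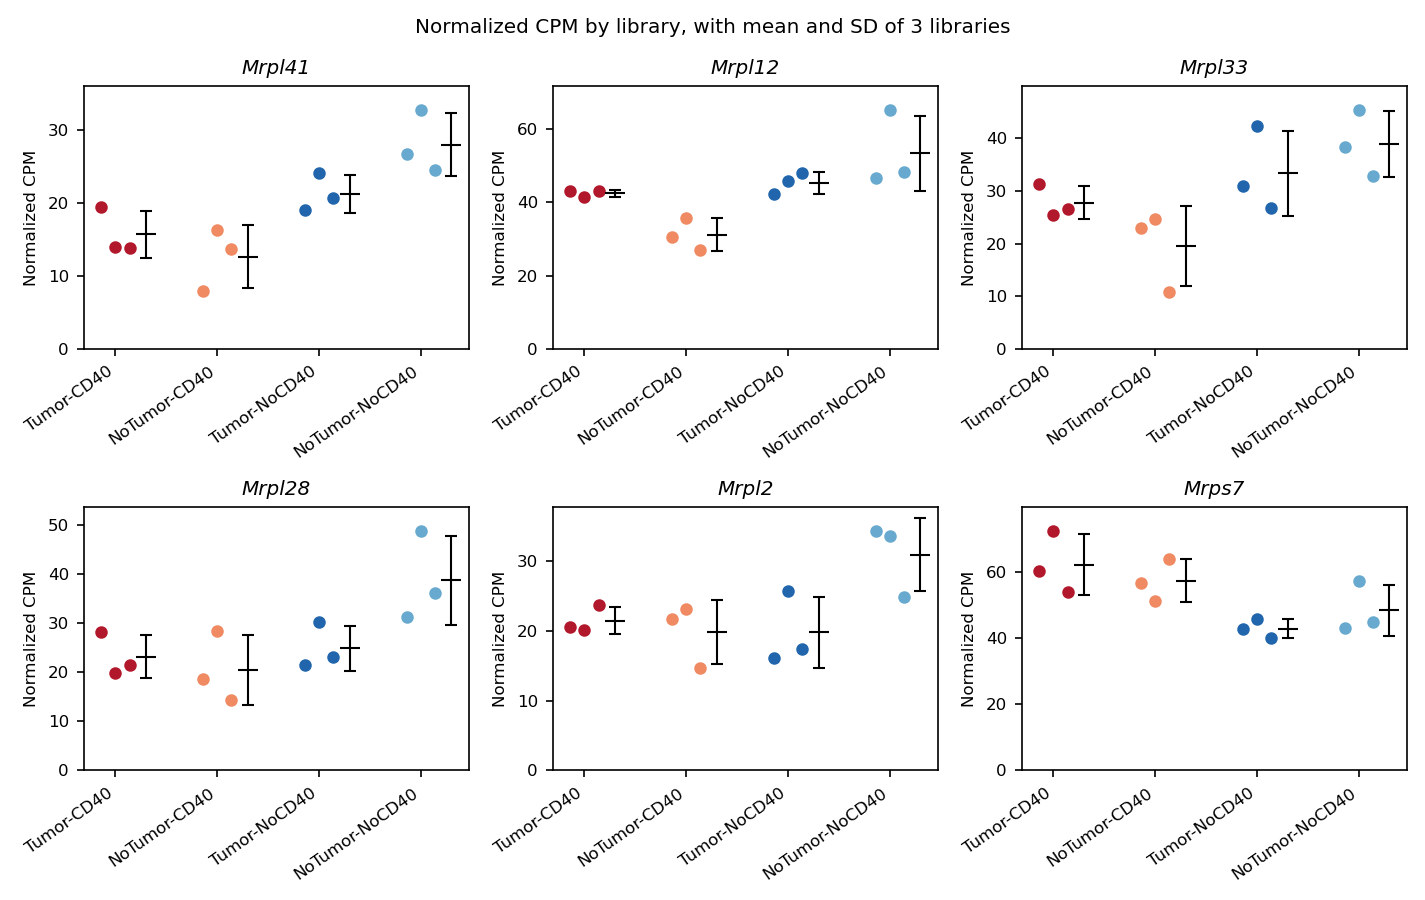
Normalized CPM of 6 genes in each library, with the mean and SD of the 3 libraries of a group. Mrpl41 and Mrpl12 lie lower in all 3 NoTumor-CD40 libraries than in all 3 NoTumor-NoCD40 libraries, and Mrps7 lies higher in the Tumor-CD40 libraries (54.1 to 72.3 CPM) than in the Tumor-NoCD40 libraries (40.1 to 45.7 CPM).

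The second comparison asks the same of mice with a tumor, where no member passed (0 of 78, against 0.685% of genes by edgeR, 0.641% as higher and 0.0442% as lower). The median log2 fold change was -0.08, against -0.02 for all genes, with 52 of 78 members below 0, against 51.8% of genes. Without Tumor-NoCD40 replicate 2 the median was -0.02, without Tumor-NoCD40 replicate 3 or Tumor-CD40 replicate 1 it was -0.13, and within title prefix pairs 0.01, -0.21 and -0.01 for replicates 1, 2 and 3. All 3 Tumor-CD40 libraries were below the Tumor-NoCD40 libraries for 5 members (6.41%, against 5.41% of genes), and above them for 1 (1.28%, against 6.5%), so the lower share was near that of all genes. At an unadjusted p under 0.05, 1 member was higher (against 5.62% of genes) and 1 lower (against 4.34%). The higher was Mrps7, a protein of the small subunit's head, with 60.4, 72.3 and 54.1 CPM in Tumor-CD40, against 42.8, 45.7 and 40.1 CPM in Tumor-NoCD40. Its groups lay apart (log2 fold change 0.54 ± 0.18, adjusted p = 0.264 by edgeR). Mrpl49, a large subunit protein with a mitochondrial name, had 20.3, 16.9 and 22.5 CPM in Tumor-CD40, against 28.8, 25.5 and 29.2 CPM in Tumor-NoCD40 (log2 fold change -0.48 ± 0.22, adjusted p = 0.473 by edgeR). Mrps18c (-0.41 ± 0.20, groups apart) and Mrps21 (-0.42 ± 0.21, groups overlapping) had the next lowest p.

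Averaged over both tumor states, 1 member fell with the agonist, against 2.52% of genes in either direction, 2.17% as higher and 0.348% as lower. This was Mrpl41, with a mean of 14.2 ± 3.78 CPM in the 6 CD40 libraries and 24.6 ± 4.84 CPM in the 6 NoCD40 libraries (SD), a log2 fold change of -0.79 ± 0.18 and an adjusted p of 0.0367 by edgeR. The 6 and 6 libraries overlapped, and 9 of 12 single-library omissions ended the call. The median of the members was -0.14, against -0.03 for all genes, with 61 of 78 below 0, against 53.2% of genes. That median was -0.10 without NoTumor-CD40 replicate 3, -0.11 without NoTumor-NoCD40 replicate 2 and -0.19 without NoTumor-CD40 replicate 1. The counts of members here are given with all 12 libraries only. At an unadjusted p under 0.05, 13 members were lower (16.7%, against 8.1% of genes) and 2 were higher (2.56%, against 9.42%). Groups were also compared within each tumor state. In both states all CD40 libraries lay below all NoCD40 libraries for 1 of the 78 members, Mrpl49 (1.28%, against 0.945% of genes). They lay above in both states for 0 members (against 2.09%). Mrpl49 had a log2 fold change of -0.46 ± 0.15 and an adjusted p of 0.14 by edgeR.

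The third comparison asks what the tumor did in mice without the agonist, and edgeR called no gene at all; at an unadjusted p under 0.05, 1053 genes passed (5.82%, 3.43% as higher and 2.39% as lower), 2 members among them, both lower, and DESeq2 called 28 genes. The members' median was -0.14, against -0.01 for all genes, and 61 of 78 were below 0, against 51% of genes. Without NoTumor-NoCD40 replicate 2 the median was -0.03, without NoTumor-NoCD40 replicate 3 or Tumor-NoCD40 replicate 2 it was -0.21, and within title prefix pairs it was -0.13 and -0.18 for replicates 1 and 2. Tumor-NoCD40 libraries were all below NoTumor-NoCD40 libraries for 9 members (11.5%, against 4.92% of genes) and all above for 1 (Mrpl44, 1.28%, against 4.06%). Mrpl2, a protein near the catalytic centre, had 16.2, 25.7 and 17.5 CPM in Tumor-NoCD40, against 34.3, 33.7 and 24.9 CPM in NoTumor-NoCD40. These overlap, with a log2 fold change of -0.65 ± 0.24 and an adjusted p of 0.775 by edgeR. Mrpl28 had 21.5, 30.1 and 23 CPM in Tumor-NoCD40, below its NoTumor-NoCD40 values given above (-0.64 ± 0.26, adjusted p = 0.775 by edgeR). Mrps34 (-0.37 ± 0.19) and Mrps30 (-0.36 ± 0.19) followed by p. This comparison and that of the agonist without tumor share the NoTumor-NoCD40 libraries, so their values are not independent.

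With the agonist given, the tumor comparison had no member past the threshold (0 of 78, against 0.199% of genes by edgeR, 0.193% as higher and 0.00553% as lower), nor did any reach an unadjusted p under 0.05 beyond Mrpl12 as higher (against 5.47% of genes) and Mrpl32 as lower (against 3.86%). The median was 0.02, against -0.01 for all genes, and 36 of 78 members were below 0, against 51% of genes. Its sign turned without NoTumor-CD40 replicate 3 (-0.04), without Tumor-CD40 replicate 1 (-0.01) and with protein_coding transcripts alone (-0.02), and within title prefix pairs it was -0.04, -0.08 and 0.23. All Tumor-CD40 libraries were below for 4 members (5.13%, against 6.2% of genes) and above for 3 (3.85%, against 6.68%). The lowest p was that of Mrpl12, at 43, 41.3 and 43 CPM in Tumor-CD40, against 30.6, 35.8 and 26.9 CPM in NoTumor-CD40 (log2 fold change 0.45 ± 0.18, adjusted p = 0.476 by edgeR). All Tumor-CD40 libraries were above all NoTumor-CD40 libraries for this gene. Mrpl32, a large subunit protein that a mitochondrial protease must trim, had 23.3, 27.5 and 20.5 CPM in Tumor-CD40, against 37.8, 29.7 and 33.4 CPM in NoTumor-CD40 (-0.50 ± 0.22, adjusted p = 0.525 by edgeR). Mrps18c and Mrpl46 were both at -0.41 ± 0.20 with their groups apart. For Mrpl46 they were barely so, with 16.9 CPM in both Tumor-CD40 replicate 2 and NoTumor-CD40 replicate 3 after rounding.

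The interaction tests whether the agonist's change differs between tumor states, and no gene passed (0 of 18095 by edgeR, 1773 or 9.8% at an unadjusted p under 0.05, 22 by DESeq2). The change of Mrpl12 was 0.68 ± 0.25 higher (log2) with tumor than without (adjusted p = 0.495 by edgeR), and that of Mrpl28 was 0.82 ± 0.38 higher (adjusted p = 0.502). At an unadjusted p under 0.05, 4 members had a higher change with tumor (5.13%, against 3.96% of genes) and 0 a lower one (against 5.84%). The members' median was 0.13, against 0.03 for all genes, with 25 of 78 below 0, against 48% of genes, but the median was 0.04 without NoTumor-CD40 replicate 3, 0.06 without NoTumor-NoCD40 replicate 2, 0.07 without Tumor-CD40 replicate 1 and 0.23 without NoTumor-NoCD40 replicate 3. The calls of Mrpl41 and Mrpl12 without tumor are therefore not shown to differ from the values with tumor.

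**Figure D5:**
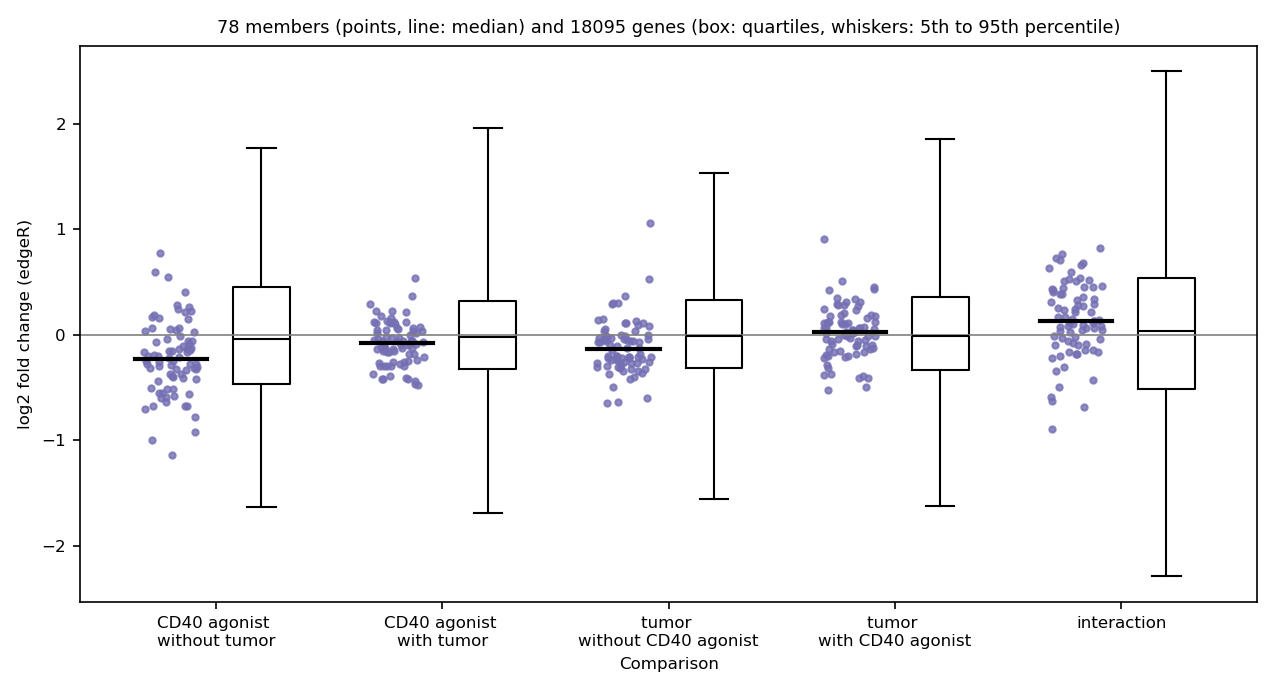
log2 fold changes of the 78 genes (points, bar at the median) beside those of all 18095 genes tested (box at the quartiles, whiskers at the 5th and 95th percentiles) in 5 comparisons. From left to right the medians of the 78 genes are -0.23, -0.08, -0.14, 0.02 and 0.13.

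Other genes of mitochondrial translation were set beside the members in the comparison of the agonist without tumor. The 5 mitoribosomal proteins with other symbols, such as Dap3, had a median log2 fold change of -0.24 and none passed. The 26 assembly and rRNA modification factors had a median of -0.21 and the 22 mitochondrial aminoacyl-tRNA synthetases -0.26, with none past the threshold in either list. Of the 13 translation factors (median -0.28) 1 passed as higher, Mtif3, an initiation factor. Mtif3 had 90.3, 62.4 and 103 CPM in NoTumor-CD40, against 39.5, 36.6 and 28.6 CPM in NoTumor-NoCD40 (log2 fold change 1.29 ± 0.26, adjusted p = 0.0297 by edgeR). The groups were apart, and its change ran against the median of its list. The 18 tested genes of mitochondrial DNA transcription and RNA upkeep had a median of -0.32, the 9 regulators of mitochondrial biogenesis -0.02, and the 15 mitochondrial rRNAs and mRNAs -0.17, with none past the threshold in this comparison. Without NoTumor-CD40 replicate 3 the medians of these lists, in the order given, were -0.16, -0.09, -0.10, -0.33, -0.27, -0.03 and 0.03. Averaged over tumor states, Hsd17b10, a subunit of the mitochondrial RNase P, fell by 0.71 ± 0.17 (log2, adjusted p = 0.0485 by edgeR). The calls of Mtif3 and Hsd17b10, and those in the lists that follow, are from the main model only. Whether they hold under the alternative fits is not given. Without tumor, all genes past the threshold ran from 22 to 946 when single libraries were left out.

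Of the 86 cytosolic ribosomal protein genes tested, 83 were below 0 with a median of -0.37, and 1 passed as lower, Rpl9-ps6, whose counts are near 0 in most libraries. Averaged over tumor states, Rpl5 of this list fell by 0.89 ± 0.20 (log2, adjusted p = 0.0284 by edgeR), with 7.28 to 14.8 CPM in the 6 CD40 libraries and 15.2 to 24.4 CPM in the 6 NoCD40 libraries. Near-identical copies were searched for the members only, so whether reads of Rpl5 were divided with copies was not tested. The level of Rpl5 and its fall are therefore uncertain. All 21 growth and cell cycle genes were below 0 with a median of -0.75, and 1 passed as lower, Dtymk, which makes thymidine diphosphate, at -1.01 ± 0.20 (adjusted p = 0.0278 by edgeR). Their summed level was 626 to 1047 CPM in NoTumor-CD40 and 1141 to 1654 CPM in NoTumor-NoCD40. All 18 genes of the mature dendritic cell program were above 0 with a median of 1.08, and 5 passed as higher (Cd274, Cd80, Traf1, Ccr7 and, named after its value was seen, Ccl17). Their summed level was 16776 to 37060 CPM in NoTumor-CD40 and 7149 to 16939 CPM in NoTumor-NoCD40. Without NoTumor-CD40 replicate 3 the medians of these 3 lists were -0.23, -0.48 and 0.91, with 82 of 86 and 21 of 21 below 0 and 18 of 18 above it. Monocyte or macrophage markers (12 of 12 found) summed to 107 to 304 CPM in NoTumor-CD40 and 456 to 600 CPM in NoTumor-NoCD40, and plasma cell markers (9 of 9 found, Tnfrsf17 under 1 CPM throughout) to 77.8 to 137 CPM in NoTumor-CD40 and 45.3 to 68.4 CPM in NoTumor-NoCD40. Plasmacytoid dendritic cell markers (7 of 7 found, Cox6a2 under 1 CPM throughout) summed to 221 to 439 CPM in NoTumor-CD40 and 109 to 161 CPM in NoTumor-NoCD40. Langerhans cell markers (2 of 2 found) summed to 12 to 83.9 CPM in NoTumor-CD40 and 97.9 to 127 CPM in NoTumor-NoCD40, and NK cell markers (6 of 6 found) to 58.6 to 98.4 CPM in NoTumor-CD40 and 100 to 135 CPM in NoTumor-NoCD40. Neutrophil markers (6 of 6 found, Camp at 0 and Ly6g and Elane under 1 CPM throughout) summed to 1.26 to 19.4 CPM in NoTumor-CD40 and 0.041 to 0.765 CPM in NoTumor-NoCD40. T cell, B cell, cDC2, stromal and erythroid sums overlapped between these groups. The Langerhans cell list was Cd207 and Epcam, and Irf4 stood in both the plasma cell and the cDC2 list. A sum does not show which cells the transcripts came from. The part of other cell types in the members' values was not tested.

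Variation between libraries of a group was similar to that of other genes. The pooled within-group SD of log2 CPM had a median of 0.265 over the members. Over 2184 genes of similar level the median was 0.28, taken on log2 (CPM + 0.5), an offset that was not used for the members. The ratio of the highest to the lowest library had a median of 2 and was greatest for Mrpl23 (10, from few counts), Mrps28 (5.38) and Mrpl22 (4.79). Mrps28 had 14.3, 15.7 and 3.57 CPM in NoTumor-CD40, against 19.2, 16.4 and 18.3 CPM in NoTumor-NoCD40, so its low value came from replicate 3. Mrpl22, which lines the exit tunnel, had 17.1, 10.8 and 3.57 CPM in Tumor-CD40, against 9.83, 12.3 and 10.4 CPM in Tumor-NoCD40, a spread within 1 group that is wider than the gap between group means.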

How the data were processed

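RNA was measured in 12 libraries in 4 groups of 3. The labels name the RNeasy Plus Micro kit for extraction and the directional NEBNext Ultra II kit for library preparation. Per the submitters' processing notes, Salmon and the mm10 build were used, with versions not given in the sources used here. The authors deposited expected counts per transcript (estimated, not normalized), and TPM, also deposited, which the authors scaled by transcript length.

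Of 136288 transcripts, 136176 were assigned to 53458 genes with GENCODE M21 (GRCm38), values were summed and counts rounded. The other 112 held 0.0279% to 0.0457% of counts and were left out. In R 4.3.3, edgeR 4.0.16 was used with TMM, filterByExpr by group (minimum count 10, total 15; 18095 genes, all 78 members), 1 model over 12 libraries (8 residual degrees of freedom), two-sided quasi-likelihood F tests with legacy = FALSE, and Benjamini-Hochberg adjustment over all genes at 0.05. SE is the absolute log2 fold change divided by the square root of F. limma 3.58.1, DESeq2 1.42.0 and other alternatives are given in the closing section. On simulated data with 200 genes changed among 18095, the comparison of the agonist without tumor recovered 13% of 2-fold and 43% of 4-fold changes. Of its 61 calls 8.2% were false, above the nominal 5%, against 3% to 5.2% in the other comparisons simulated.

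The members and gene lists were chosen with earlier results of these data known. Named members are those past the threshold, the 4 with the lowest p in each comparison, the 5 highest and 5 lowest in TPM, a panel of known roles, and the 3 with the widest range of libraries; other genes are up to 4 per list past the threshold. Genes named outside this rule, and the motifs, were chosen after their values were seen. No correction was made for RNA quality.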

Additional observations from a re-analysis of the deposited data

How the results depend on the processing

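For the 24 member and comparison pairs that passed or had the lowest p, log2 fold changes kept their sign under every alternative run. These pairs were picked for low p in the same libraries, so the kept signs are not separate evidence. Values of other named members under the alternatives are not given. The members' median for the tumor with agonist, near 0, did not keep its sign. Without tumor, the agonist's 2 called members became 1 with RLE size factors and with no filter on low counts, 4 with DESeq2 (Mrpl28 and Mrpl33 joining), and 0 with library totals only, legacy = TRUE, protein_coding transcripts only, the 2 groups alone, limma-voom, limma-trend on log2(TPM + 1) or log2(TPM + 0.1), and limma-trend with no filter. In total 16 of 19 alternatives ended the call of Mrpl12 and 14 of 19 that of Mrpl41, over adjusted p of 0.00768 to 0.302 and 0.00614 to 0.357. Over leave-one-out fits the count ran from 0 to 5. Averaged over tumor states, the 1 called member became 0 with each of the 3 limma-trend fits and ran from 0 to 2 over leave-one-out fits, with 12 of 24 alternatives ending the call of Mrpl41. No member passed in any other comparison under leave-one-out.

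Counts of all genes past the threshold moved more. Without tumor the 261 became 401 with no filter, 173 with the 2 groups alone, 120 with limma-voom, 31, 29 and 23 with the 3 limma-trend fits in the order above, and 932 with DESeq2 (22 to 946 over leave-one-out fits). With tumor the 124 became 200 with no filter, 61 with legacy = TRUE, 54 with protein_coding transcripts, 25 with the 2 groups alone, 36 with limma-voom, 29, 21 and 16 with limma-trend, and 326 with DESeq2 (26 to 226). Averaged, the 456 became 295 with limma-voom, 133, 149 and 42 with limma-trend, and 1006 with DESeq2 (221 to 870). For the tumor without agonist, 0 became 1 with no filter, 8 with unfiltered limma-trend and 28 with DESeq2 (0 to 2). For the tumor with agonist, 36 became 89 with no filter, 0 with legacy = TRUE, protein_coding transcripts and limma-voom, 3 with the 2 groups alone, 12, 6 and 7 with limma-trend, and 186 with DESeq2 (0 to 71). The interaction's 0 became 2 with limma-trend on log2(TPM + 1), 7 unfiltered and 22 with DESeq2 (0 to 0). The cause was not tested.

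Leave-one-out medians of the members were -0.29 to -0.12 (agonist without tumor), -0.13 to -0.02 (with tumor), -0.19 to -0.10 (averaged), -0.21 to -0.03 and -0.04 to 0.09 (tumor without and with agonist) and 0.04 to 0.23 (interaction). Ratios of summed TPM were 0.848 to 0.905 without tumor and 0.916 to 0.996 with it.

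The title prefix shared by libraries was tried as a replicate block. Same-prefix libraries deviated together weakly, with r of 0.004 to 0.228 and a median of 0.063 over 15 pairs. Over 39 other pairs r was -0.19 to 0.088 with a median of -0.029. The prefix was left out of the main model because NoTumor-NoCD40 replicate 3 shares its prefix with no library. With the block, 48 genes and 0 members passed without tumor, 229 genes with tumor, and 83 for the tumor with agonist. Leaving out single libraries for counts and list medians of the agonist without tumor, and adding the counts of near-identical copies to the member, were chosen after seeing the data; the copies left 2 members called. Low counts limit Mrpl23.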
